A study of Homo sapiens with 54 samples.

Results

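The step from 2.5 to 5 µM of the compound CP14 was measured in A549 cells that carried an empty vector. Its members are the 3 libraries labelled CP14_5uM_E_V and the 3 labelled CP14_2_5uM_E_V, 6 of the 54 libraries of the series. The question was which genes changed only at the higher dose and which changed sign, relative to cells given vehicle. A549 is an epithelial line from a human lung adenocarcinoma. The empty-vector cells (E_V) carried a vector with no insert, 1 engineered population, and served in the study as the counterpart of cells that overexpress USP18 (USP18_O_E), the enzyme that removes the ubiquitin-like protein ISG15 from other proteins. Every group used here was exposed for 48 h and had 3 replicates: empty-vector cells with the vehicle DMSO (DMSO_E_V), with CP14 at 1, 2.5 or 5 µM, or with another coded compound, CP18, at 2.5 or 5 µM, and USP18_O_E cells with CP14 at 2.5 or 5 µM. The labels give CP14 and CP18 only by code, so nothing is said of their structure. The labels do not say whether replicates were separate cultures, so each p-value measures a spread between samples that may be technical. The study states that its experiments typically had 3 or more independent biological replicates, a general statement not tied to these libraries.

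RNA was sequenced in bulk, and the deposited values are expected counts, the number of fragments that the program RSEM assigned to each gene. The 5 µM libraries held 18094065, 19775980 and 17866670 expected counts, the 2.5 µM libraries 19111075, 23622320 and 20162126, the 1 µM libraries 17970762, 20536660 and 19641834, and the vehicle libraries 21576354, 18072475 and 25609062. Levels below are normalized CPM, a gene's counts per 1000000 counts of its library after edgeR's TMM scaling. Changes are log2 ratios, so that 1 is a doubling and -1 a halving, given with a standard error (±, n = 3 libraries per group). Adjusted p-values come from edgeR's quasi-likelihood test with Benjamini-Hochberg adjustment over the 15742 genes that passed its filter on low counts, in 1 fit of the 12 CP14 and vehicle libraries of empty-vector cells. A gene was called when its adjusted p was under 0.05 and its log2 change was over 1 in either direction.

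Cells under stress from unfolded proteins, lack of amino acids or lost redox balance slow most protein synthesis and at the same time make more of the transcription factor ATF4, which switches on genes for amino acid supply and for the return to normal translation. Chaperones of the cytosol answer mainly to heat shock factor, and those of the endoplasmic reticulum to the unfolded protein response. Genes for DNA replication and for mitosis are made in dividing cells in successive waves, driven by E2F factors and by complexes that bind paired cell cycle and CCAAT elements.

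At 5 µM, cells held more RNA of most genes on a list of ATF4 targets and amino acid genes, among them ATF3, TRIB3 and PPP1R15A. They held less RNA of most listed genes for mitosis, DNA replication, cholesterol synthesis and heat shock proteins. In bulk samples, fewer cells of a type and less RNA per cell cannot be told apart. Between 5 and 2.5 µM, 1790 genes were called, 11.4% of those tested. Of these, 812 were higher at 5 µM (5.16%) and 978 were lower (6.21%). At an adjusted p under 0.05 with no limit on size, 4807 genes were higher (30.5%) and 4839 lower (30.7%). In 10267 genes (65.2%) the 3 libraries of 1 dose all lay above the 3 of the other, and 1736 of the 1790 called genes were among them. The median change over all genes tested was 0.01.

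By the count of genes called, most of the response to CP14 relative to vehicle appeared at this step. Against vehicle, 5 µM called 2133 genes (13.5%), 942 higher and 1191 lower. At 2.5 µM, 85 genes were called (0.54%), 40 higher and 45 lower. This count ran from 35 to 174 over the alternatives. With no limit on size, 2567 genes had an adjusted p under 0.05 at 2.5 µM and 10162 at 5 µM. At 1 µM, 14 genes were called (0.0889%), 1 higher and 13 lower. The count at 1 µM was 8 without vehicle replicate 2, 25 without vehicle replicate 3 and 8 without 1 µM replicate 1. These 3 comparisons share the vehicle libraries. Along the first principal component, which held 59.6% of the variance, the 5 µM libraries lay at 65.8, 68.2 and 62.9, the 2.5 µM libraries at -12.7, -14.9 and -15.4, and the vehicle and 1 µM libraries between -26.7 and -24.9. The 5 µM group therefore stood apart from all other libraries along this axis, and the 2.5 µM group lay between it and vehicle but closer to vehicle.

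Genes were taken as changed only at 5 µM when they were called at 5 µM against vehicle, had an adjusted p of 0.05 or more at 2.5 µM against vehicle, and were also called in the same direction in the direct test of 5 against 2.5 µM. There were 1172 such genes, 494 higher (3.14%) and 678 lower (4.31%). Their median absolute log2 change against vehicle was 1.58 at 5 µM and 0.16 at 2.5 µM, a contrast that the choice of these genes sets in part. In each of the 12 fits that left out 1 library, 776 of the 1172 genes (66.2%) met the same conditions, 318 of them higher and 458 lower. Apart from these, 961 genes called at 5 µM against vehicle did not meet the conditions.

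HSPA6, an inducible chaperone of the cytosolic heat shock 70 family (ENSG00000173110.8, chr1:161524540-161526894, plus strand, GRCh38, GENCODE v44), was among the largest rises of genes with a mean of at least 1 CPM over the 12 libraries. Its level was 0.700, 1.17 and 0.593 CPM in the vehicle libraries, 0.891, 0.587 and 0.769 at 1 µM, 0.891, 0.721 and 0.550 at 2.5 µM and 14.9, 12.2 and 10.8 at 5 µM. The 3 libraries at 5 µM were all high and the 9 others were low. The groups at 2.5 and 5 µM did not overlap, a condition for naming the largest changes between them that 65.2% of genes tested met. The log2 change from 2.5 to 5 µM was 4.13 ± 0.22 (adjusted p = 4.9e-13), a 17.5-fold difference, and that from vehicle to 2.5 µM was -0.14 (adjusted p = 0.809). Fragments of HSPA6 and of the nearly identical pseudogene HSPA7 may be assigned to either gene. The mean over the 12 libraries takes in those at 5 µM, so genes low in all others could reach 1 CPM through these alone. The choice of the largest rises is therefore not independent of the 5 µM levels.

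GREM1, a secreted antagonist of bone morphogenetic proteins (ENSG00000166923.11, chr15:32718004-32745106, plus strand), stood at 0.0934, 0.222 and 0.119 CPM with vehicle, 0.524, 0.0424 and 0.350 at 2.5 µM and 7.41, 5.71 and 6.397 at 5 µM. Only the 5 µM libraries were above 1 CPM, so GREM1 reached a mean of 1 CPM through them alone. They did not overlap with the 2.5 µM libraries, which held 10, 1 and 7 counts. The step was 4.46 ± 0.36 (adjusted p = 5.2e-10), or 5.09 without 2.5 µM replicate 1, and GREM1 met the conditions for a change only at 5 µM in 11 of the 12 fits that left out 1 library. Other large rises of this kind were those of LAMP3, a lysosomal membrane glycoprotein, with 3.77, ADM2, which encodes the peptide hormone intermedin, with 3.43, PTX3, a secreted pentraxin of innate immunity, with 3.46, and the long non-coding RNA AC034213.1 with 4.14. LAMP3, ADM2 and PTX3 met the conditions in 11 of the 12 fits, and AC034213.1 in all 12. At 2.5 µM against vehicle, ADM2 had 0.48 (adjusted p = 0.0860), with the 2.5 µM libraries above all vehicle libraries, LAMP3 0.87 (adjusted p = 0.0813) and PTX3 0.82 (adjusted p = 0.459), none of which passed, so smaller rises at 2.5 µM are not excluded.

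A pair of the largest rises had already begun at 2.5 µM and so fell outside this group. FAM129A, named NIBAN1 in current annotation and known as a protein induced by cell stress (ENSG00000135842.17, chr1:184790724-184974508, minus strand), was at 7.38, 6.78 and 8.02 CPM with vehicle, 17.8, 16.67 and 18.4 at 2.5 µM and 213, 216 and 215 at 5 µM. The 2.5 µM libraries lay above vehicle and the 5 µM libraries above those, with no overlap. The change was 1.24 ± 0.072 (adjusted p = 5.2e-10) from vehicle to 2.5 µM and 3.61 ± 0.048 (adjusted p = 3.1e-22) from 2.5 to 5 µM. BEX2, a brain-expressed X-linked protein, changed by 1.08 ± 0.17 (adjusted p = 1.2e-04) and 3.81 ± 0.10 (adjusted p = 8.2e-18) over the same intervals.

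TFEC, a transcription factor of the family that also holds the lysosomal regulator TFEB (ENSG00000105967.16, chr7:115935148-116159896, minus strand), was among the largest falls of genes with that mean. Its level was 2.85, 3.78 and 3.68 CPM with vehicle, 2.73, 3.01 and 2.65 at 2.5 µM and 0.109, 0.150 and 0.221 at 5 µM. The 5 µM libraries were all below the others, and the step was -4.08 ± 0.31 (adjusted p = 1.7e-10). KRT4, a keratin of moist stratified epithelia (ENSG00000170477.13, chr12:52806549-52814116, minus strand), was at 16.6, 16.1 and 16.72 CPM with vehicle, 15.6, 17.9 and 15.9 at 2.5 µM and 0.763, 1.40 and 1.65 at 5 µM. Here too only the 5 µM libraries were low, with a step of -3.69 ± 0.16 (adjusted p = 1.3e-14).

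Several falls reached the floor, a group in which no library held more than 3 counts, where a fold can be given only as a lower bound (computed with a floor of 3 counts per library). CBLN2, a cerebellin that organizes synapses, was at least 10.1-fold lower at 5 than at 2.5 µM, with 1, 1 and 2 counts against 22, 38 and 42. OR51E1, an olfactory receptor, was at least 7.84-fold lower, and HABP2, a secreted serine protease, at least 6.32-fold lower. GJB1, a connexin of gap junctions, fell by 3.77 on the log2 scale and LGALS2, a galectin, by 3.43, with the 5 µM libraries below all others in both. The fall of GJB1 was 4.57 without 5 µM replicate 3. GJB1 met the conditions for a change only at 5 µM in 8 of the 12 fits that left out 1 library, LGALS2 in 10, HABP2 in 11 and CBLN2 and OR51E1 in 12. At 2.5 µM against vehicle, GJB1 had -0.56 (adjusted p = 0.0515) and HABP2 -0.88 (adjusted p = 0.0601), with the 2.5 µM libraries below all vehicle libraries in both, and LGALS2 -0.59 (adjusted p = 0.0714). These 3 genes missed the threshold narrowly, so earlier falls are not excluded. The long non-coding RNA AL671762.1, which overlaps HSPA1B and SNHG32 so that its counts are uncertain, held 77, 105 and 17 counts at 2.5 µM and 0, 0 and 9 at 5 µM, a step of -4.24 (adjusted p = 9.9e-05). All of its counts at 5 µM came from replicate 3, without which the group was at the floor, and the step was -3.63 without 5 µM replicate 2. For the long non-coding RNA CU634019.1 the 2.5 µM libraries held 0, 3 and 188 counts, so the groups overlapped, although their means differed at least 19.9-fold. That bound rested on 2.5 µM replicate 3, without which it was 0.398 and no fall could be stated. Its adjusted p of 0.00992 became 0.819 without 2.5 µM replicate 3 and 0.12 in a fit of all 54 libraries.

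**Figure D1:**
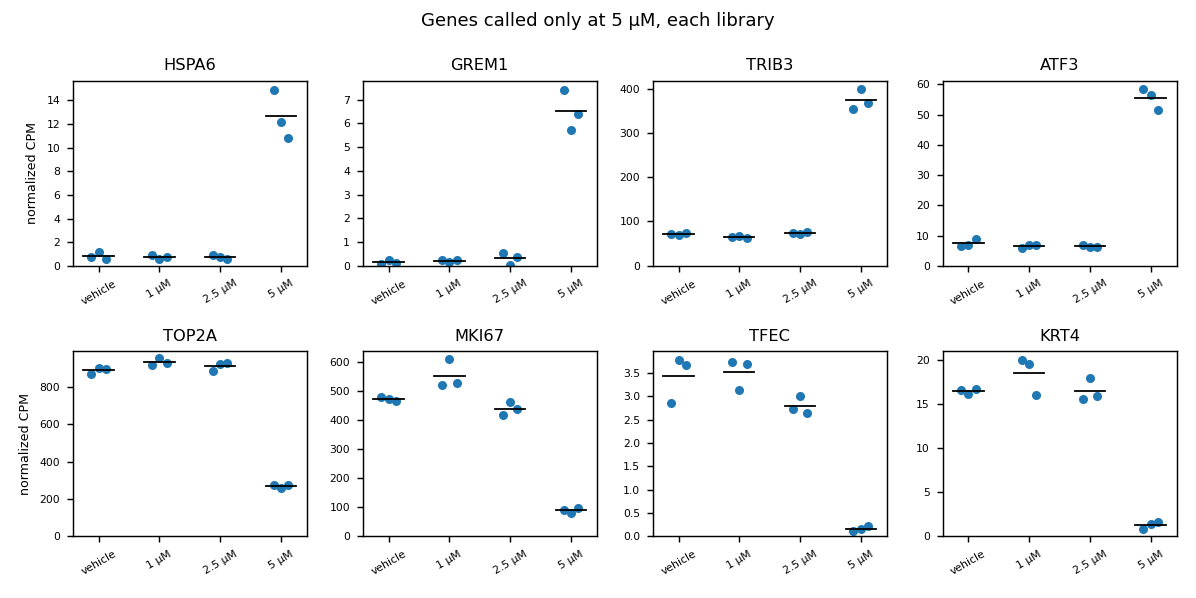
Normalized CPM in each of the 12 libraries (points; bars mark group means) for 8 genes that changed only at 5 µM, each gene on its own scale. HSPA6 lay between 10.8 and 14.9 CPM at 5 µM and KRT4 between 0.763 and 1.65, outside the range of the 2.5 µM libraries in each case.

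Genes of the ATF4 response rose together. List counts here and below stand beside the shares over all genes tested. These were 30.5% higher and 30.7% lower at an adjusted p under 0.05, with 5.16% called higher and 6.21% called lower. Of the 31 listed ATF4 targets and amino acid genes tested, 28 were higher at 5 than at 2.5 µM with an adjusted p under 0.05 and 0 were lower, 17 were called higher, and 7 met the conditions for a rise only at 5 µM. The list's median step was 1.04, beside 0.01 for all genes, and its median change against vehicle was 0.05 at 2.5 µM and 1.23 at 5 µM. TRIB3, a pseudokinase that feeds back on ATF4 (ENSG00000101255.11, chr20:362835-397559, plus strand), was at 70.8, 69.5 and 74.2 CPM with vehicle, 72.9, 72.5 and 76.4 at 2.5 µM and 355, 400.2 and 368 at 5 µM. All 3 libraries at 5 µM were above every other library, and the step was 2.34 ± 0.042 (adjusted p = 3.5e-20). ATF3, a transcription factor induced by stress (ENSG00000162772.17, chr1:212565334-212620777, plus strand), was at 6.44, 7.00 and 8.89 CPM with vehicle, 7.03, 6.19 and 6.15 at 2.5 µM and 58.5, 56.5 and 51.6 at 5 µM, again with the 5 µM libraries alone high and a step of 3.11 ± 0.095 (adjusted p = 4.3e-17). SESN2, a sensor of leucine that restrains growth signalling, rose by 2.40 from 2.5 to 5 µM and stood at -0.01 (adjusted p = 0.911) at 2.5 µM against vehicle. STC2, a secreted stanniocalcin, rose by 0.64 from vehicle to 2.5 µM and by a further 2.59 to 5 µM.

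Further members of this list were chosen after their values were seen. DDIT3, the transcription factor CHOP, was at 6.92, 6.11 and 5.35 CPM at 2.5 µM and 38.8, 35.7 and 33.7 at 5 µM, a step of 2.56 ± 0.11 (adjusted p = 9.4e-15). CHAC1, which breaks down glutathione, was at 4.98, 3.90 and 4.20 and 30.9, 37.2 and 33.1 CPM, a step of 2.96 ± 0.11 (adjusted p = 1.3e-15). In both genes the 5 µM libraries lay above all others, and both met the conditions for a rise only at 5 µM. ASNS, asparagine synthetase, rose over both intervals, by 0.59 from vehicle to 2.5 µM and by 1.21 from 2.5 to 5 µM. SLC7A5, the catalytic part of a transporter of large amino acids, did not pass the test (step 0.08, adjusted p = 0.0602). It passed in 6 of the alternative analyses, for example at an adjusted p of 0.0191 without vehicle replicate 3, and its log2 change ranged from 0.06 to 0.11 over all of them.

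Endoplasmic reticulum chaperones moved in both directions. Of 18 listed genes, 10 were higher and 6 lower at an adjusted p under 0.05, 3 were called higher, and the median step was 0.19. HSPA5, the main chaperone of the endoplasmic reticulum (ENSG00000044574.8, chr9:125234853-125241382, minus strand), was at 718, 723 and 735 CPM with vehicle, 706, 702 and 719 at 2.5 µM and 1676, 1712 and 1627 at 5 µM. The 5 µM libraries were more than double all others, with a step of 1.24 ± 0.027 (adjusted p = 2.7e-19). HYOU1, a chaperone induced by hypoxia, rose by 1.0, and ERN1, the sensor IRE1, by 1.58. CALR, calreticulin, which folds glycoproteins with calcium, fell by 0.92, while HSP90B1, the reticulum's member of the heat shock 90 family, had a step of 0.01 (adjusted p = 0.735) whose sign changed between alternatives.

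Heat shock genes fell as a list, in contrast to HSPA6, which is not on it. The list holds chaperones of the cytosol and also some of other compartments, such as HSPE1 of the mitochondria, which fell by 1.05. Of 20 listed heat shock genes, 0 were higher in edgeR's test and 19 were lower at an adjusted p under 0.05, 4 were called lower, and the median step was -0.57. Against vehicle the list's median was 0.10 at 2.5 µM and -0.42 at 5 µM, and 11 members were higher than vehicle at 2.5 µM and lower at 5 µM. HSP90AA1, the inducible heat shock 90 chaperone (ENSG00000080824.18, chr14:102080742-102139699, minus strand), was at 2418, 2361 and 2588 CPM with vehicle, 3031, 2917 and 3108 at 2.5 µM and 1534, 1394 and 1484 at 5 µM. The 2.5 µM libraries lay above the vehicle libraries and the 5 µM libraries below them, without overlap. The change against vehicle was 0.30 ± 0.039 (adjusted p = 1.8e-05) at 2.5 µM and -0.74 ± 0.039 (adjusted p = 3.6e-13) at 5 µM. DNAJA1, a co-chaperone of the heat shock 70 family, changed by 0.22 (adjusted p = 2.3e-04) and -0.53 (adjusted p = 3.3e-11). HSPA1A, whose coding sequence is nearly that of HSPA1B so that fragments may be assigned to either, was at 295, 285 and 288 CPM with vehicle, 320.3, 306 and 300.2 at 2.5 µM and 148, 142 and 145 at 5 µM. Its change against vehicle was 0.09 (adjusted p = 0.0346) at 2.5 µM and -1.0 (adjusted p = 5.0e-17) at 5 µM, and it met the conditions for opposite signs in 7 of the 12 fits that left out 1 library.

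Promoter sequences were taken from RefSeq (GRCh38.p14, 250 bases before to 50 after a gene's start, 300 in all), which held promoters of 111 of the 165 named genes and 35116 promoters in all. The core of the heat shock element was searched as GAANNTTC, a sequence that reads alike on both strands, and 6.77% of all promoters held it. Among the 30 promoters of the 18 heat shock genes with an entry, 12 held it (40%). Promoters of HSPA6 (chr1:161524290-161524589 on the plus strand), HSPA1A (chr6:31815293-31815592 on the plus strand) and DNAJA1 (chr9:33025023-33025322 on the plus strand) are shown because HSPA6 rose at the step while the other pair fell. Capitals mark the matches, 2 in HSPA6, 1 in HSPA1A and 2 in DNAJA1.
HSPA6: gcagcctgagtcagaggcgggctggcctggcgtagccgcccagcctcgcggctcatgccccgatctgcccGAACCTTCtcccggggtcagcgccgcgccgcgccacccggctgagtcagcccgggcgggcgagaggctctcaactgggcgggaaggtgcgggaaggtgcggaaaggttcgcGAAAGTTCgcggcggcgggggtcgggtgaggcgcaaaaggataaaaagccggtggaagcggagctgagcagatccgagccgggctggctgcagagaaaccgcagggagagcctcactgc
HSPA1A: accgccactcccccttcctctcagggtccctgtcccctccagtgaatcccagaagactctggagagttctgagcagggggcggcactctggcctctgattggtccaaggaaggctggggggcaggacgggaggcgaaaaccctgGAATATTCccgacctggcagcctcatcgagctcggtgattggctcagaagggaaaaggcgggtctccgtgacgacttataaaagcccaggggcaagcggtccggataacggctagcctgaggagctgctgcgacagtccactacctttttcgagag
DNAJA1: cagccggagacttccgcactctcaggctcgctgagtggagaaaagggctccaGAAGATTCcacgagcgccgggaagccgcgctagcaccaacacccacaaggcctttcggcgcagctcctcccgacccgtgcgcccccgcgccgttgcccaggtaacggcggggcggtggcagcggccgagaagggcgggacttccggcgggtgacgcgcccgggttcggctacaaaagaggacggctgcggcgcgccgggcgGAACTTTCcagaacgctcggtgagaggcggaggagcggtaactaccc
A match describes the letters of the window and is not a measured binding site.

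Genes counted as opposite in sign had an adjusted p under 0.05 against vehicle at both doses, with a rise at one dose and a fall at the other, and an adjusted p under 0.05 between the doses. There were 335 of them. Of these, 127 were lower than vehicle at 2.5 µM and higher at 5 µM (0.807% of genes tested), and 208 were higher at 2.5 µM and lower at 5 µM (1.32%). Their changes were small, with a median absolute log2 change of 0.17 at 2.5 µM and 0.31 at 5 µM. A change over 1 at 5 µM was seen in 30 of them, 11 higher and 19 lower than vehicle, and 51 were called between the doses. The count fell to 173 without vehicle replicate 1, to 196 without vehicle replicate 2 and to 210 without 2.5 µM replicate 3. Of the 335 genes, 106 (31.6%) met the conditions in all 12 fits that left out 1 library, 43 of them rising at 5 µM and 63 falling. Both signs are taken against the same vehicle libraries.

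**Figure D2:**
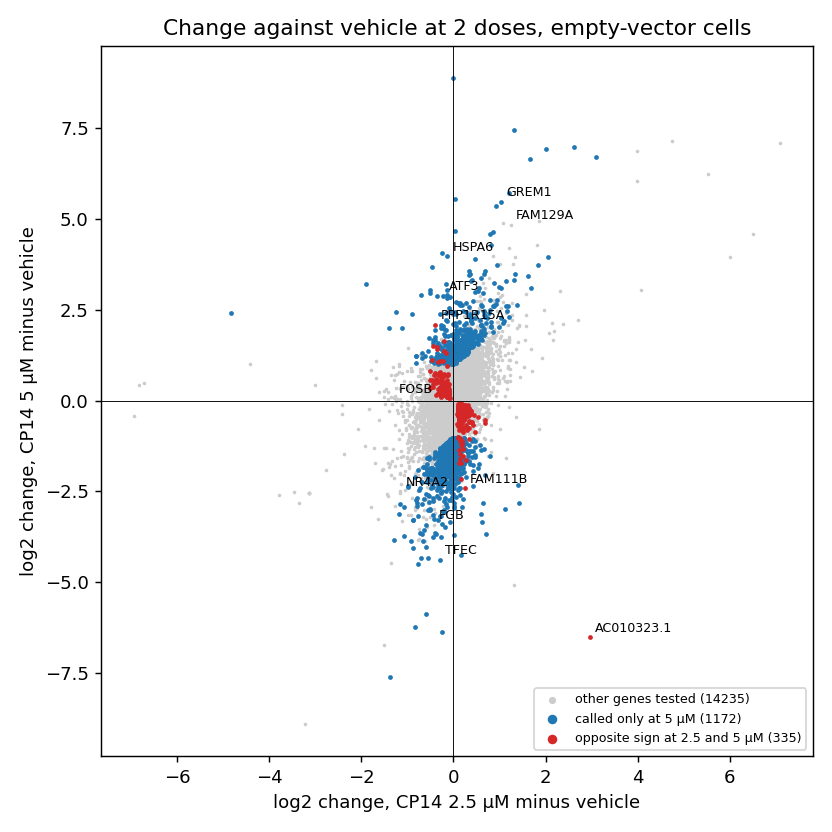
Log2 change against vehicle of each gene tested, at 2.5 µM CP14 (horizontal) and 5 µM CP14 (vertical) in empty-vector cells. The 1172 genes called only at 5 µM are in blue and the 335 genes of opposite sign in red, and the axes share the vehicle libraries.

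PPP1R15A, the phosphatase subunit GADD34 that restores translation after stress (ENSG00000087074.8, chr19:48872212-48876059, plus strand), had the largest step of the genes that went down and then up. It was at 77.5, 86.7 and 81.9 CPM with vehicle, 70.9, 78.6 and 74.9 at 1 µM, 64.5, 64.0 and 58.6 at 2.5 µM and 355, 359.5 and 336 at 5 µM. The 2.5 µM libraries lay below every vehicle library and the 5 µM libraries far above them. Against vehicle the change was -0.39 ± 0.049 (adjusted p = 1.2e-05) at 2.5 µM and 2.10 ± 0.044 (adjusted p = 1.1e-19) at 5 µM, and between the doses it was 2.49 ± 0.045 (adjusted p = 3.5e-20). DUSP5, a phosphatase that inactivates the kinase ERK (ENSG00000138166.6, chr10:110497907-110511533, plus strand), was at 69.5, 69.1 and 66.0 CPM with vehicle, 53.0, 55.4 and 50.9 at 2.5 µM and 189, 198 and 184 at 5 µM. It showed the same order with no overlap between groups, with -0.36 (adjusted p = 6.7e-06) at 2.5 µM and 1.48 (adjusted p = 2.2e-18) at 5 µM against vehicle. ABCG1, a transporter that exports cholesterol, changed by -0.47 (adjusted p = 0.00408) and 1.12 (adjusted p = 8.5e-10), and NDRG1, a gene induced by hypoxia and stress, by -0.40 (adjusted p = 4.0e-07) and 0.53 (adjusted p = 2.8e-11). These 4 genes met the conditions in all 12 fits that left out 1 library.

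Other genes of this direction depended more on single libraries. GDF15, a secreted stress cytokine, was at 92.9, 83.7 and 77.4 CPM with vehicle, 75.0, 71.7 and 74.7 at 2.5 µM and 255, 278 and 261 at 5 µM. Its 2.5 µM libraries lay just below the vehicle libraries, with -0.20 (adjusted p = 0.0150), and it met the conditions in 10 of the 12 fits. LAMB3, a laminin subunit of the basement membrane, did so in 11 fits (-0.17 and 1.3 at 2.5 and 5 µM), CXCL2, a chemokine that attracts neutrophils, in 9 (-0.35 and 1.42), ERN1 in 8 (-0.21 and 1.38) and PCDH1, a protocadherin, in 7 (-0.44 and 1.51).

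Among genes that went up and then down, HMMR, a receptor for hyaluronan that also acts at the mitotic spindle (ENSG00000072571.20, chr5:163460203-163491941, plus strand), was at 97.2, 97.4 and 97.8 CPM with vehicle, 106, 111 and 109 at 2.5 µM and 29.3, 28.4 and 32.1 at 5 µM. All 2.5 µM libraries lay above all vehicle libraries by a small margin, and all 5 µM libraries far below. The change against vehicle was 0.16 ± 0.037 (adjusted p = 0.00578) at 2.5 µM and -1.70 ± 0.044 (adjusted p = 2.5e-18) at 5 µM. HMGCS1, an early enzyme of cholesterol synthesis (ENSG00000112972.15, chr5:43287470-43313512, minus strand), was at 187, 200.4 and 205 CPM with vehicle, 228, 221 and 234 at 2.5 µM and 66.7, 66.2 and 72.3 at 5 µM, in the same order without overlap. Its change against vehicle was 0.21 (adjusted p = 6.0e-04) and -1.53 (adjusted p = 4.7e-18). ALDH3A1, an aldehyde dehydrogenase, changed by 0.13 and -0.75, and MT-ATP8, a subunit of the mitochondrial ATP synthase, by 0.34 and -0.59. HMMR, HMGCS1, ALDH3A1, MT-ATP8, HSP90AA1 and DNAJA1 met the conditions in all 12 fits that left out 1 library.

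FAM111B, a trypsin-like protease, had the largest fall of this kind among genes with counts in every library. It was at 33.4, 34.6 and 38.1 CPM with vehicle, 41.0, 39.9 and 44.9 at 2.5 µM and 6.76, 6.16 and 7.22 at 5 µM, so that the groups did not overlap. The change was 0.24 (adjusted p = 0.00901) and -2.40 (adjusted p = 1.4e-16) against vehicle, and it met the conditions in 10 of the 12 fits. OAS3, an enzyme induced by interferon, met them in 10 fits (0.13 and -0.66), DLGAP5, a spindle protein, in 8 (0.16 and -2.16), PRC1, which bundles microtubules in cell division, in 7 (0.11 and -1.71) and CCNE2, a cyclin of the start of DNA replication, in 5 (0.27 and -1.64). AC010323.1 was the 1 gene with a change over 1 at both doses. It is a read-through gene model that overlaps NDUFA7, so its counts are uncertain. It held 36, 0 and 0 counts with vehicle, 0, 0 and 0 at 1 µM, 54, 58 and 159 at 2.5 µM and 0, 0 and 0 at 5 µM, at least 27.6-fold lower at 5 than at 2.5 µM. The step had an adjusted p of 7.0e-05 in edgeR and 0.0586 in DESeq2. The bound on its fold was 16.6 without 2.5 µM replicate 3. All of its vehicle counts came from replicate 1, without which 5 µM did not differ from vehicle, and it met the conditions in 7 of the 12 fits.

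**Figure D3:**
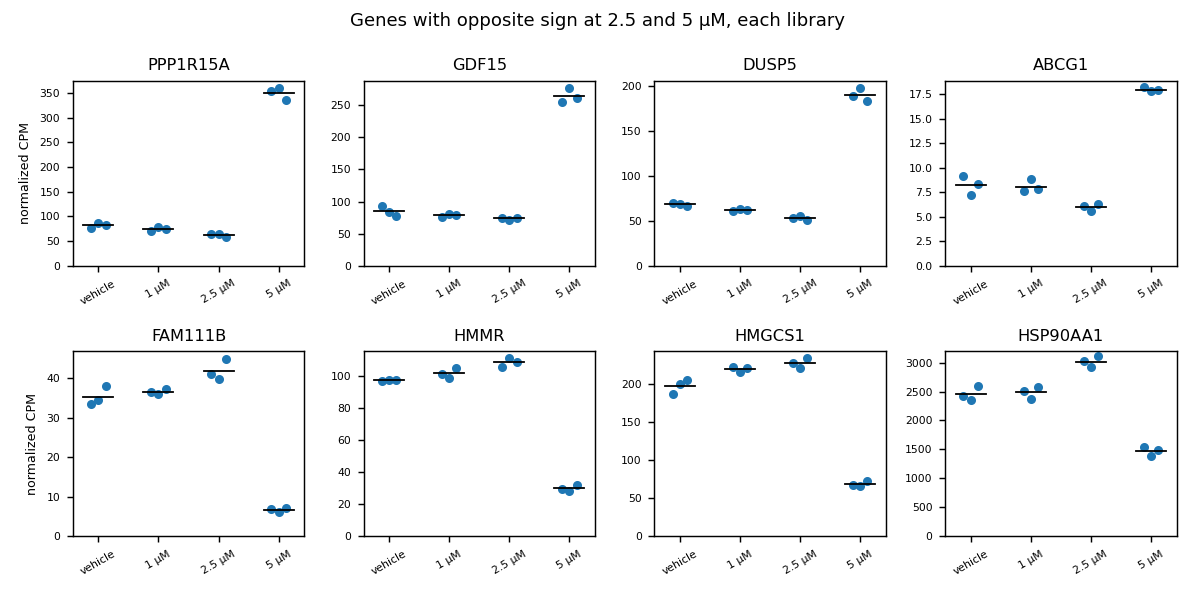
Normalized CPM in each of the 12 libraries (points; bars mark group means) for 8 genes whose change against vehicle had opposite signs at 2.5 and 5 µM, each gene on its own scale. PPP1R15A fell by 0.39 on the log2 scale at 2.5 µM and rose by 2.10 at 5 µM, and HMGCS1 rose by 0.21 and fell by 1.53.

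A further 15 genes were called at 2.5 µM against vehicle, changed again between the doses at an adjusted p under 0.05, and at 5 µM had an adjusted p of 0.05 or more against vehicle. FOSB, a subunit of the transcription factor AP-1 (ENSG00000125740.14, chr19:45467995-45475179, plus strand), was among them, at 15.5, 19.2 and 15.9 CPM with vehicle, 12.9, 11.0 and 11.4 at 1 µM, 8.34, 6.96 and 5.25 at 2.5 µM and 18.7, 16.9 and 17.3 at 5 µM. The 2.5 µM libraries were the lowest, and the 5 µM libraries overlapped with vehicle. The change was -1.29 ± 0.12 (adjusted p = 3.5e-07) at 2.5 µM and 0.07 ± 0.11 (adjusted p = 0.594) at 5 µM against vehicle, and 1.36 ± 0.12 (adjusted p = 3.7e-09) between the doses. EGR2, an early-response zinc finger factor chosen after its values were seen, held 26, 21 and 21 counts with vehicle, 4, 2 and 6 at 2.5 µM and 14, 25 and 8 at 5 µM. Its 2.5 µM libraries were the lowest as well, and its 5 µM libraries overlapped with vehicle. EGR1, its relative and chosen in the same way, changed by -0.58 (adjusted p = 1.8e-08) at 2.5 µM and -0.27 (adjusted p = 9.7e-06) at 5 µM against vehicle, and by 0.30 (adjusted p = 3.5e-06) between the doses. NR4A2, an orphan nuclear receptor that is also induced early, did not return. It changed by -1.16 (adjusted p = 1.1e-05) at 2.5 µM and -2.49 (adjusted p = 3.0e-11) at 5 µM.

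Immediate early genes as a list rose at the step. Of 33 tested, 27 were higher and 3 lower at an adjusted p under 0.05, 12 were called higher and 1 lower, and 7 rose only at 5 µM. The median was -0.18 at 2.5 µM and 0.45 at 5 µM against vehicle, and 0.63 between the doses. FOSL1, the AP-1 subunit FRA1, was at 12.5, 14.3 and 16.1 CPM with vehicle, 22.5, 20.8 and 21.0 at 2.5 µM and 108, 111 and 98.3 at 5 µM, higher than vehicle at 2.5 µM and higher again at 5 µM without overlap, with a step of 2.31 (adjusted p = 3.7e-17). GADD45A, a growth arrest protein, rose by 2.15, DUSP4, a nuclear phosphatase of ERK, by 0.63, and MCL1, a survival protein with a short half-life, by 1.02. MCL1, close to the limit of 1, met the conditions for a rise only at 5 µM in 7 of the 12 fits that left out 1 library.

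Targets of NF-kB and cytokines also rose, 18 of 21 tested, with 1 lower, 9 called higher and a median step of 0.81. CXCL8, a chemokine for neutrophils, was at 7.94, 7.67 and 8.77 CPM with vehicle, 13.0, 11.4 and 12.2 at 2.5 µM and 56.4, 54.9 and 54.1 at 5 µM, with no overlap between groups and a step of 2.17 (adjusted p = 7.9e-17). CXCL5, a related chemokine, rose by 1.0, NFKB2, a subunit of NF-kB itself, by 1.24, TNIP1, an inhibitor of the pathway, by 0.68 and TNFAIP2, a protein induced by tumour necrosis factor, by 0.35.

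Targets of p53 were higher in 22 of 28 genes and lower in 3, with 6 called higher and a median step of 0.41. TNFRSF10B, a death receptor for TRAIL (ENSG00000120889.13), was at 236, 237 and 249 CPM with vehicle, 252, 258 and 252 at 2.5 µM and 628, 637 and 613 at 5 µM. Only the 5 µM libraries were far from the others, and the step was 1.3 (adjusted p = 4.6e-19). CDKN1A, the cell cycle inhibitor p21, rose by 0.16 from vehicle to 2.5 µM and by 1.17 to 5 µM. In the BCL2 family of apoptosis regulators, 10 of 15 genes were higher and 2 lower, 5 were called higher, and the median step was 0.50. BBC3 and PMAIP1, which promote cell death, rose by 1.27 and 1.25, and BCL2L1, which protects from it, by 0.61, while BCL2L11, which promotes it and was chosen after its values were seen, fell.

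Genes of mitosis fell without exception among those tested. All 30 listed genes were lower at 5 than at 2.5 µM, all 30 were called, and 25 fell only at 5 µM. Their steps ran from -2.72 to -1.25 with a median of -1.77, and their median against vehicle was 0.03 at 2.5 µM. TOP2A, the topoisomerase that untangles chromosomes (ENSG00000131747.15, chr17:40388525-40417896, minus strand), was at 869, 900.2 and 898 CPM with vehicle, 887, 925 and 928 at 2.5 µM and 273, 259 and 273 at 5 µM. The 2.5 µM libraries lay within the range of vehicle and 1 µM, and the 5 µM libraries far below, with a step of -1.77 ± 0.031 (adjusted p = 2.5e-20). MKI67, the proliferation marker Ki-67 (ENSG00000148773.14, chr10:128096659-128126423, minus strand), was at 480.0, 471 and 466 CPM with vehicle, 416, 459.6 and 437 at 2.5 µM and 91.2, 80.5 and 95.6 at 5 µM, a step of -2.30 ± 0.059 (adjusted p = 2.9e-18). The groups at 2.5 and 5 µM did not overlap in either gene. NUSAP1, which organizes the spindle, fell by 2.13, AURKA, a mitotic kinase, by 1.96, and FOXM1, a transcription factor of mitotic genes, by 1.77. CCNA2, a cyclin of replication and mitosis chosen after its values were seen, fell by 2.13.

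Genes of DNA replication fell as well. All 38 tested were lower at an adjusted p under 0.05, 34 were called, 23 fell only at 5 µM, and the median step was -1.48. RRM2, a subunit of ribonucleotide reductase (ENSG00000171848.15, chr2:10120698-10211725, plus strand), was at 249, 256 and 273 CPM with vehicle, 277, 275 and 288 at 2.5 µM and 56.7, 57.9 and 65.0 at 5 µM. Its 5 µM libraries lay below all others, with a step of -2.22 (adjusted p = 2.1e-19). TK1, a thymidine kinase, fell by 2.14, MCM6 and MCM7, parts of the replicative helicase, by 1.57 and 1.25, and PCNA, the sliding clamp, by 1.24. RRM2 met the conditions for a fall only at 5 µM in 10 and PCNA in 9 of the 12 fits that left out 1 library. Replication-dependent histone genes, whose mRNAs lack a poly(A) tail, were mixed. Of 88 listed, 27 were tested, 4 were higher and 6 lower, 1 and 2 were called, and the median step was -0.29. The core histone genes HIST1H2AC and HIST1H2BD went different ways. HIST1H2AC rose by 0.45 and HIST1H2BD fell by 0.56, and fragments of such similar genes may be assigned to either.

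The promoters of mitotic genes were searched on both strands for TTTGAA, the core of the cell cycle homology region, and for CCAAT. Of all promoters, 15.2% held TTTGAA and 34.6% held CCAAT. Of the 30 promoters of the 24 listed mitotic genes with an entry, 17 (56.7%) held TTTGAA and 25 (83.3%) held CCAAT. Of 43 promoters of DNA replication genes, 1 (2.33%) held TTTGAA and 25 (58.1%) held CCAAT. The CCAAT share was not particular to mitotic genes. It was 85.7% for the list of endoplasmic reticulum chaperones and 81.5% for replication-dependent histone genes, which did not fall as mitotic genes did. Most other lists had lower shares, such as 33.8% for cytosolic ribosomal proteins. The promoters of TOP2A (chr17:40417847-40418146 on the minus strand), which fell only at 5 µM, and of HMMR (chr5:163460382-163460681 on the plus strand), DLGAP5 (chr14:55191536-55191835 on the minus strand) and PRC1 (chr15:90994486-90994785 on the minus strand), which changed sign, are shown to set these groups side by side. Capitals mark matches on either strand. The cell cycle core matched at 2 places in TOP2A and 2 in HMMR, 3 in DLGAP5 and 1 in PRC1. The CCAAT element matched at 4, 5, 2 and 1 places in the same order, and a pair of those in HMMR overlap on opposite strands.
TOP2A: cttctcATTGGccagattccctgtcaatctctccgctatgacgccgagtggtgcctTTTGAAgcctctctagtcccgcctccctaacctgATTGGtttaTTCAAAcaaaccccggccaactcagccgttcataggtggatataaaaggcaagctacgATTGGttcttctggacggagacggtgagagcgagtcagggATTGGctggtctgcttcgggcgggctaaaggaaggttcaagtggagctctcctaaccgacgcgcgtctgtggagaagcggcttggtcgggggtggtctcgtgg
HMMR: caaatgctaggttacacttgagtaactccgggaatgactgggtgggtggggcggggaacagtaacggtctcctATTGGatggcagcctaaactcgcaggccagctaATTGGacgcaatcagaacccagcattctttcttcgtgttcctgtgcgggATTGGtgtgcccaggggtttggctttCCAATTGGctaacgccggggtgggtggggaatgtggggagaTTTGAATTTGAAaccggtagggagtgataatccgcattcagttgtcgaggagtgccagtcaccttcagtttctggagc
DLGAP5: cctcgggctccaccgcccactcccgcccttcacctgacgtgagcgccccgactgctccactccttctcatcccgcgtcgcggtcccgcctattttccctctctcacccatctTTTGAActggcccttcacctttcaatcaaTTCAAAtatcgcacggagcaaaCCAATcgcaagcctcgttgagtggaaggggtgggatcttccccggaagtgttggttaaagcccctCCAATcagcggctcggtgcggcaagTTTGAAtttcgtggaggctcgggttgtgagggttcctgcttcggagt
PRC1: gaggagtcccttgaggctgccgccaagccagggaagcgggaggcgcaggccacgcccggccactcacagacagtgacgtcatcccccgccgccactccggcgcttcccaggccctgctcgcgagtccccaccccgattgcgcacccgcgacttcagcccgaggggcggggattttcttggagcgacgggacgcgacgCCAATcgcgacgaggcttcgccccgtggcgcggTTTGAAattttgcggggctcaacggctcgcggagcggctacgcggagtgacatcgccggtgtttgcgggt
Both groups of promoters held both motifs.

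For the genes that rose, TGATGNAA, the core of the element bound by ATF4 with C/EBP proteins, and TGACGTCA, the cyclic AMP response element, were searched on both strands. Of all promoters, 3.62% held the first and 1.85% the second. Of the 40 promoters of the 26 listed ATF4 targets with an entry, 7 (17.5%) held TGATGNAA and 1 (2.5%) held TGACGTCA. The promoters of PPP1R15A (chr19:48872171-48872470 on the plus strand) and ATF3 (chr1:212565157-212565456 on the plus strand, 1 of 2 windows) are shown because these genes had large steps, of which PPP1R15A alone changed sign. Of the 2 ATF3 windows, the 1 shown was picked by its count of these matches. Its match is therefore not independent of that choice. Capitals mark TGACGTCA in PPP1R15A and TGATGNAA in ATF3, each with 1 match.
PPP1R15A: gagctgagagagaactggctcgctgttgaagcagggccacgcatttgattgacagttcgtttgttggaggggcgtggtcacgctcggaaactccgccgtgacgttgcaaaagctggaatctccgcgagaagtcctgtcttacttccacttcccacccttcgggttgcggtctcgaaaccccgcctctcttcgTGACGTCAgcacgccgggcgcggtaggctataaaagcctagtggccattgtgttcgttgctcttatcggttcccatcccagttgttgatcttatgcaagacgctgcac
ATF3: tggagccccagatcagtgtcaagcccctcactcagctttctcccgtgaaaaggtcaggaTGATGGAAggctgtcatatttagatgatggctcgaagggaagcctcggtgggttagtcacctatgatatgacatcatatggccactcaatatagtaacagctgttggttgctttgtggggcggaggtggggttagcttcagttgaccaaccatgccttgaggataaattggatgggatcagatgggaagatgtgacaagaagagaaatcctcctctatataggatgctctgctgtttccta
The window of PPP1R15A held no TGATGNAA, and that of ATF3 no TGACGTCA.

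Genes of cholesterol synthesis fell in 23 of 24 cases and rose in 1, with 13 called lower, 9 lower only at 5 µM and 3 opposite in sign. The median step was -1.15, and the median against vehicle was -0.04 at 2.5 µM and -1.23 at 5 µM. IDI1, an isomerase of the pathway (ENSG00000067064.11, chr10:1039152-1049119, minus strand), was at 78.8, 73.4 and 77.5 CPM with vehicle, 78.2, 72.7 and 79.5 at 2.5 µM and 27.9, 26.9 and 26.5 at 5 µM. Its vehicle and 2.5 µM libraries overlapped, and only the 5 µM libraries were low (-1.5, adjusted p = 9.0e-17). SREBF2, the transcription factor of the pathway, fell by 0.84, and INSIG1, which holds that factor in the endoplasmic reticulum and was chosen after its values were seen, by 1.90.

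**Figure D4:**
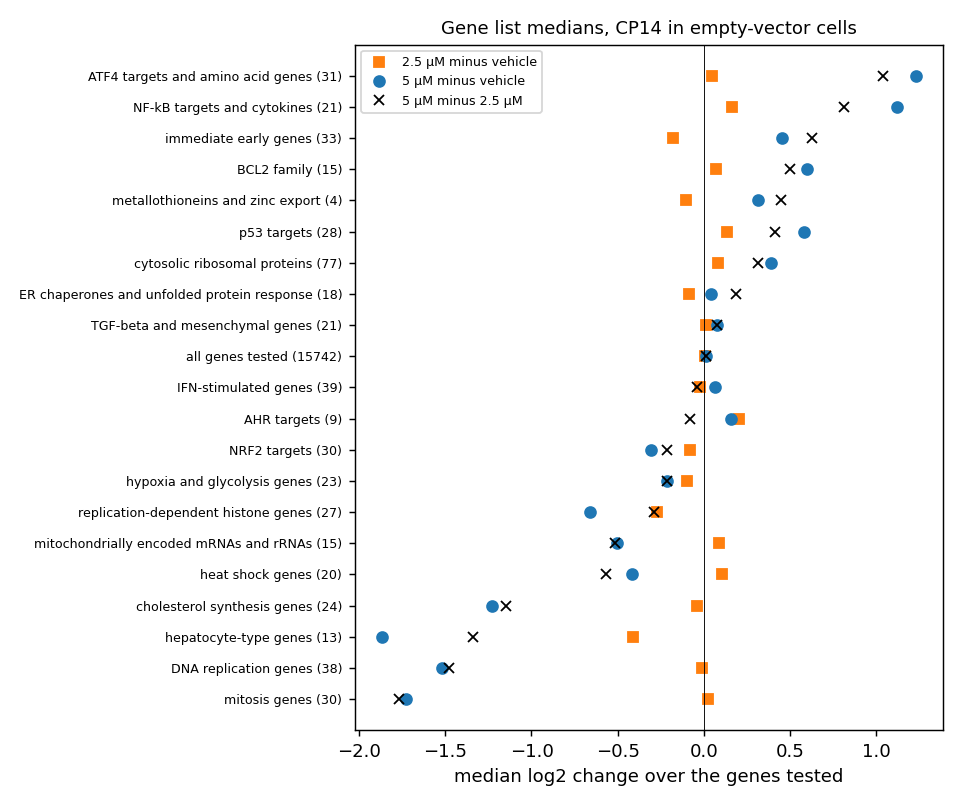
Median log2 change of gene lists at 2.5 and 5 µM CP14 against vehicle and between the doses. Between the doses, the median was 1.04 for ATF4 targets, -1.77 for mitosis genes, -1.48 for DNA replication genes and 0.01 for all genes tested.

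Hepatocyte-type genes, which A549 cells express in part, fell further at the step. Of 18 listed, 13 were tested, 12 were lower, 9 were called, and the median was -0.41 at 2.5 µM and -1.87 at 5 µM against vehicle. FGB, the fibrinogen beta chain, was at 352, 391 and 343 CPM with vehicle, 261, 271 and 274 at 2.5 µM and 35.9, 27.8 and 38.7 at 5 µM, in falling order without overlap (-2.98 for the step, adjusted p = 1.7e-18). FGA and FGG, the other chains, fell by 2.27 and 2.04, and CPS1, an enzyme of the urea cycle, by 1.34.

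Among genes of hypoxia and glycolysis, 7 of 23 were higher and 13 lower, 2 and 4 were called, and the median step was -0.22. The count of rises was near the share over all genes (30.5%), while that of falls was above it (30.7%). LDHA, lactate dehydrogenase, fell by 0.92, SLC2A3, a glucose transporter, by 1.22, PFKFB3, an activator of glycolysis, by 0.80 and ENO1, enolase, by 0.31. NDRG1, also on this list, rose by 0.93. The called rises, in HK2, a hexokinase, and VEGFA, a growth factor of blood vessels, were chosen after their values were seen. Targets of NRF2, the factor of the antioxidant response, were higher in 7 of 30 and lower in 17, with 1 called higher and a median of -0.21. SQSTM1, the autophagy receptor p62, was the called gene with 1.14, and FTH1, the ferritin heavy chain, rose by 0.62. AKR1C2 and AKR1C3, aldo-keto reductases similar enough for fragments to be assigned to either or to AKR1C1, fell by 0.69 and 0.68. NQO1, a quinone reductase on this list, fell by 0.48, and FTL, the ferritin light chain, did not pass (0.07, adjusted p = 0.0580), although it passed in 3 alternatives, with 0.12 (adjusted p = 8.3e-04) without 5 µM replicate 1.

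Targets of the aryl hydrocarbon receptor were mixed, with 3 of 9 higher, 4 lower, 2 called higher and 1 lower, and a median step of -0.08 that ranged from -0.26 to -0.06 over the alternatives and was negative in all of them. TIPARP, a repressor of the receptor, rose by 1.37 and CYP1B1, a monooxygenase, by 0.68. Metallothioneins and the zinc exporter SLC30A1 had 4 genes tested of 10, 3 higher and 0 lower in edgeR's test, 1 called and a median of 0.45. MT2A, a metal-binding protein, was the called gene (1.5, adjusted p = 7.5e-15), and SLC30A1 rose by 0.34. The TGF-beta and mesenchymal list had 10 of 21 genes higher and 5 lower, 3 called higher and a median of 0.08. ITGA5, an integrin subunit, rose by 0.73, THBS1, a matrix glycoprotein, fell by 0.92, and CDH1, the epithelial cadherin, fell by 0.96.

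Genes stimulated by interferon did not move as a list, and their counts were near the shares over all genes (30.5% higher and 30.7% lower). Of 39 tested out of 50, 10 were higher and 13 lower, 1 was called higher and 2 lower, and the median of -0.04 ranged from -0.05 to 0.02 over the alternatives, on either side of 0. IFIT1, an RNA-binding antiviral protein, was at 5.23, 4.89 and 5.06 CPM with vehicle, 4.98, 5.17 and 4.00 at 2.5 µM and 0.926, 0.601 and 0.772 at 5 µM, low in the 5 µM libraries alone (-2.62, adjusted p = 2.0e-10). OAS1, which makes an antiviral messenger, fell by 0.94. ISG15 was at 1.83, 2.38 and 1.45 CPM at 2.5 µM and 2.51, 2.65 and 2.15 at 5 µM, which overlap, with a step of 0.36 (adjusted p = 0.158). It passed in 1 alternative, with 0.57 (adjusted p = 0.0477) without 2.5 µM replicate 2. USP18 itself was at 10.5, 10.6 and 11.0 CPM with vehicle, 10.8, 12.3 and 9.39 at 2.5 µM and 9.37, 10.5 and 8.77 at 5 µM, also overlapping, with -0.19 (adjusted p = 0.123). It passed in 2 alternatives, with -0.28 (adjusted p = 0.0235) without 2.5 µM replicate 3 and -0.20 (adjusted p = 0.0386) in a fit of all 54 libraries.

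A list of 23 genes that the study names, which is not all that it names and not independent of these samples, had 19 members tested, 4 higher and 10 lower at the step, 3 and 2 called and a median of -0.19. Beside FOSB, NR4A2 and LAMB3, OTUD7A, a deubiquitinase, rose by 1.26. NCCRP1, an F-box-like protein, held 2, 7 and 6 counts at 2.5 µM and 1, 1 and 0 at 5 µM and was at or under the floor in the latter, with an adjusted p of 0.0145 that was 0.053 in DESeq2, 0.052 without 2.5 µM replicate 2 and 0.0581 without 5 µM replicate 3. HAUS6, part of the augmin complex of the spindle, and TUBA1C, an alpha-tubulin, were opposite in sign, with 0.13 and -0.32, and 0.18 and -0.09, at 2.5 and 5 µM against vehicle. They met the conditions in 7 and 9 of the 12 fits that left out 1 library.

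RNA encoded by mitochondria changed unevenly. Of 15 genes, 4 were higher and 10 lower, 1 was called higher and 2 lower, and the median step was -0.52. Over all genes, 30.5% were higher, near the share in this list, and 30.7% lower, below it. MT-CO3, a subunit of cytochrome oxidase, fell by 1.21 and MT-CO2, another, fell against vehicle by 1.03 at 5 µM, while the ribosomal RNA MT-RNR2 rose by 0.66. Mitochondrial genes took 3.66, 3.48 and 2.86% of counts at 2.5 µM and 2.99, 2.94 and 2.74% at 5 µM, ranges that overlap. Cytosolic ribosomal protein genes rose slightly, 75 of 77 higher and 1 lower, with 0 called in edgeR and a median of 0.32. RPL12, of the large subunit, rose by 0.67 and RPS12, of the small subunit, by 0.63, and fragments of such genes may be shared with their pseudogenes. Together they took 6.13, 6.15 and 6.29% of counts at 2.5 µM and 7.85, 8.18 and 7.81% at 5 µM, without overlap.

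Short RNAs without a poly(A) tail, such as the signal recognition particle RNAs RN7SL1 and RN7SL2, varied most among the vehicle libraries, where they took 0.0233, 0.0549 and 0.00736% of counts, beside 0.00801, 0.00674 and 0.00966% at 2.5 µM and 0.0101, 0.0056 and 0.00641% at 5 µM. Of 11 tested, 0 were higher and 0 lower at the step in edgeR's test, and the median of -0.01 ranged from -0.09 to 0.38 over the alternatives, on either side of 0. Single members passed in some alternatives. With no filter, RPPH1, the RNA of ribonuclease P, passed with 1.17 (adjusted p = 1.0e-08), RN7SK, which restrains transcription elongation, with 0.84 (adjusted p = 9.7e-09), RN7SL2 with -0.43 (adjusted p = 1.6e-11) and RN7SL1 with -0.37 (adjusted p = 1.3e-08). In the fit of only the groups compared, RPPH1 (adjusted p = 0.00249), RN7SK (adjusted p = 3.0e-04) and RN7SL2 (adjusted p = 0.0225) passed. RPPH1 also passed without vehicle replicate 2 (adjusted p = 0.0437) or 3 (adjusted p = 0.0278), RN7SK without vehicle replicate 3 (adjusted p = 0.0151), and the small nucleolar RNA SNORD17 without 2.5 µM replicate 2 (-0.915, adjusted p = 0.029). Against vehicle, 8 of the 11 were called lower at 2.5 µM, among the 45 genes called lower there. What part library preparation had in this was not tested.

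The cells' label was checked against markers. Epithelial markers of A549 together took 1.62, 1.67 and 1.66% of counts at 2.5 µM and 1.13, 1.17 and 1.17% at 5 µM. Of these 9 genes, 8 were lower and 1 higher at the step, 3 were called lower, and the median was -0.48. Most of these counts were of KRT8, KRT18, KRT7, AKR1B10 and NQO1, while EPCAM held 70 to 287 counts and KRT19 67 to 134 in the 12 libraries. KRT8 and KRT18, keratins of simple epithelia, fell by 1.27 and 1.01, while KRT7, another, rose by 0.74. Immune markers took 0.00371, 0.00394 and 0.00381% at 2.5 µM and 0.00662, 0.00737 and 0.00633% at 5 µM. Nearly all of this was CD68, a lysosomal protein, which rose by 0.82, whereas the leukocyte marker PTPRC had at most 7 counts in any of the 12 libraries and CD3E had 0. Fibroblast markers took 0.0011, 0.00108 and 0.00138% and 0.00073, 0.000748 and 0.000778%, mostly COL1A1, a collagen chain that fell by 0.57, with at most 4 counts of COL1A2 and 3 of DCN. All 3 fibroblast markers tested were lower, with a median of -1.46, of which COL3A1 (-1.5, adjusted p = 0.0194) did not pass without 2.5 µM replicate 1 (-1.15, adjusted p = 0.107), 5 µM replicate 1 (-1.42, 0.0585) or 5 µM replicate 2 (-1.23, 0.0872). No endothelial marker exceeded 5 counts. Of the alveolar markers, SFTPA1 and SFTPB had 0 counts and NAPSA between 17 and 43. The part that any of these markers had in the dose step was not tested.

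The dose step was then set beside that in cells with more USP18, with CP14 at the same doses. In that fit USP18 RNA was at 1202, 1213 and 1191 CPM at 2.5 µM and 2004, 2165 and 2100 at 5 µM in USP18_O_E cells, against 11.0, 12.5 and 9.55 and 9.51, 10.6 and 8.92 in empty-vector cells. The overexpressed RNA was therefore itself higher at 5 µM, without overlap. The step called 1934 genes in USP18_O_E cells, 878 higher and 1056 lower, and 1804 in empty-vector cells in this fit of 12 libraries. The steps themselves differed in 3590 of 15891 genes (22.6%) at an adjusted p under 0.05, more positive in empty-vector cells in 1860 and more negative in 1730, by over 1 in 311. TRIB3 rose by 2.34 in empty-vector cells and 1.60 in USP18_O_E cells, a difference of 0.74 (adjusted p = 0.00140). At 2.5 µM it was at 172, 127 and 106 CPM in USP18_O_E cells, against 74.0, 74.0 and 77.6 in empty-vector cells. The vehicle libraries of USP18_O_E cells were not in this fit, so a difference present without CP14 was not tested. For TFEC the steps were -4.08 and -0.66, a difference of -3.43 (adjusted p = 0.00983). TFEC was at only 0.239, 0.321 and 0.164 CPM in USP18_O_E cells at 2.5 µM and 0, 0.304 and 0.156 at 5 µM, against 2.77, 3.07 and 2.69 and 0.111, 0.152 and 0.224 in empty-vector cells, so a fall as large as theirs could not have been measured. For TOP2A the steps were -1.77 and -1.77 and the 95% interval of the difference was -0.20 to 0.19. For SESN2 the steps were 2.39 and 2.34 and the interval was -0.26 to 0.38. The list medians in USP18_O_E cells were 0.61 for ATF4 targets, -1.54 for mitosis, -1.63 for DNA replication and -0.70 for cholesterol synthesis, where 21 of 31, 16 of 30, 17 of 38 and 10 of 24 genes differed between the cell types.

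CP18 gave a much smaller step at the same doses in empty-vector cells. Between 5 and 2.5 µM CP18, 41 genes had an adjusted p under 0.05 and 4 were called. EGR1, FOSB and ATF3 were higher and the pseudogene ULK4P1 lower, with ULK4P1 named after its values were seen. The steps of CP14 and CP18 differed in 6669 of 15662 genes (42.6%), more positive for CP14 in 3112 and more negative in 3557, by over 1 in 1500. The step of TRIB3 was 2.34 with CP14 and -0.12 with CP18, a difference of 2.46 (adjusted p = 3.0e-13). For TOP2A the steps were -1.77 and 0.08, a difference of -1.85 (adjusted p = 6.2e-13). For HSPA6 they were 4.12 and 0.20, a difference of 3.92 (adjusted p = 6.4e-06), and for PPP1R15A 2.48 and 0.68, a difference of 1.81 (adjusted p = 3.1e-12). A pair of early-response genes rose more with CP18. EGR1 rose by 0.30 with CP14 and 1.12 with CP18, a difference of -0.82 (adjusted p = 2.6e-07), and FOSB by 1.36 and 1.91, a difference of -0.54 (adjusted p = 0.0336). ATF3 rose with both, by 3.10 and 1.20, a difference of 1.90 (adjusted p = 6.1e-10). The list medians with CP18 were 0.03 for ATF4 targets, 0.09 for mitosis, -0.05 for DNA replication and 0.33 for immediate early genes.

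**Figure D5:**
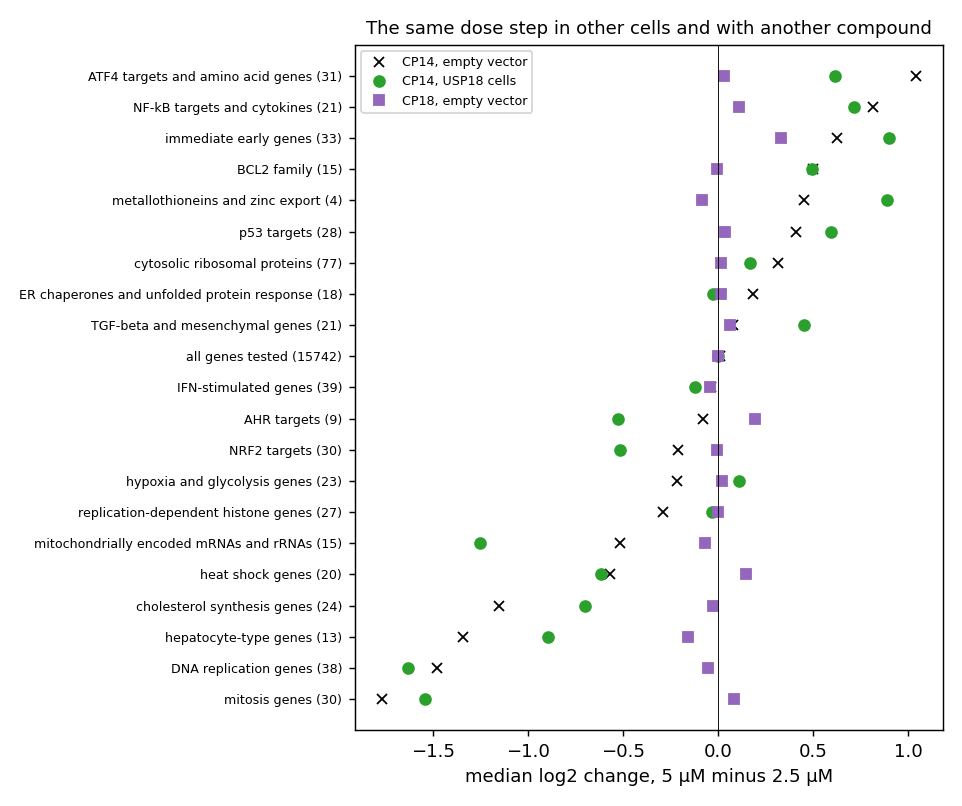
Median log2 change from 2.5 to 5 µM of gene lists for CP14 in empty-vector cells, CP14 in USP18_O_E cells and CP18 in empty-vector cells. For mitosis genes the medians were -1.77, -1.54 and 0.09.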

How the data were processed

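The authors deposited a table of expected counts for 58870 genes in 54 libraries of 18 groups, made, by the submitters' processing notes, with cutadapt 1.18, STAR 2.7.0f and RSEM 1.3.1. The notes name a mouse annotation, but the gene identifiers are human. The labels give poly(A) capture and the methods removal of ribosomal RNA, which cannot both hold. Of all values, 94% had no decimal part, zeros included, and of those above 0, 83.3%. The rest were rounded.

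Samples were grouped by their labels, 3 per group. The 12 empty-vector libraries with vehicle or CP14 were fitted in R 4.3.3 with edgeR 4.0.16 (limma 3.58.1): filterByExpr (minimum count 10, minimum total 15), TMM, quasi-likelihood test and Benjamini-Hochberg adjustment, with thresholds of 0.05 and 1. The difference of steps by cell type or compound was tested as an interaction in fits of 12 libraries each. Totals of the 12 empty-vector libraries with vehicle or CP14 ran from 17866670 to 25609062 counts, and 15742 genes were tested in their fit. Replicates were treated as unpaired. Deviations of 2.5 and 5 µM replicates of the same number correlated at -0.028, -0.0029 and 0.0182. Folds at the floor used 3 counts, which covers counting error only.

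Named genes were those with the largest changes in each direction with a mean of at least 1 CPM, and, for each list, the 4 with the smallest adjusted p and the 2 with the highest mean, beside genes the study names. Others are said to have been chosen after their values were seen. Libraries were assigned to groups by their labels, but the members and lists were chosen with earlier results of these data known. Coordinates came from GENCODE v44 by identifier. Alternatives were RLE factors, library totals, no filter, a replicate block, a stricter filter (10 counts required throughout), DESeq2 1.42.0, a fit of all 54 libraries, a fit of only the groups compared, and leaving out each library. The code was tested on simulated data. The other libraries of the series were left out because they were not part of these comparisons.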

Additional observations from a re-analysis of the deposited data

Results flagged for a closer look

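The change from 2.5 to 5 µM CP14 differed between empty-vector and USP18_O_E cells, by a test of the difference itself, in 3590 genes. The 13 named genes with the largest such differences, as the step in empty-vector cells minus that in USP18_O_E cells on the log2 scale, were TFEC with -3.43, FAM129A with 2.13, LAMP3 with 2.01, BEX2 with 1.93, CHAC1 with 1.84, PTX3 with 1.79, ALDH3A1 with 1.71, ADM2 with 1.68, RN7SL2 with 1.67, RN7SL1 with 1.48, AC034213.1 with 1.40, ABCG1 with 1.24 and CYP1B1 with 1.20. TFEC was at 0.321 CPM or less in each of these USP18_O_E libraries. A fall as large as that in empty-vector cells could not have been measured there. RN7SL2 was at 95.6, 125 and 63.3 CPM and RN7SL1 at 77.4, 107 and 62.0 in USP18_O_E cells at 2.5 µM. Such short RNAs also varied widely among the vehicle libraries. A difference between steps can lie at either dose. FAM129A was at 139, 102 and 86.0 CPM at 2.5 µM and 303, 307 and 299 at 5 µM in USP18_O_E cells, against 18.1, 17.0 and 18.7 and 216, 219 and 218 in empty-vector cells. BEX2 was at 30.6, 20.6 and 16.4 and 79.6, 81.4 and 88.4 CPM against 3.73, 2.99 and 3.66 and 49.5, 49.8 and 44.9, and CHAC1 at 19.0, 13.9 and 8.59 and 32.9, 26.8 and 31.0 CPM against 5.06, 3.98 and 4.26 and 31.4, 37.7 and 33.7. In these 3 genes the USP18_O_E libraries lay above the empty-vector libraries at 2.5 µM, without overlap. Whether they did so without CP14 was not tested. The same test between CP14 and CP18 in empty-vector cells singled out 6669 genes. Whether USP18 itself had a part in the differences between the cells was not tested.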

How the results depend on the processing

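No step from 2.5 to 5 µM of a named gene that passed its test changed sign. Nor did a named change that passed against vehicle or between steps by cell type or compound, except AC010323.1 at 5 µM, 0 without vehicle replicate 1. Such changes no longer passed in 127 of 1652 cases at 2.5 µM against vehicle, 20 of 2940 at 5 µM, 122 of 1593 by cell type and 23 of 2589 by compound. In 6 cases the sign of a named gene that did not pass changed: HSP90B1 (0.011) was -0.0030 with no filter and -0.011 to 0.029 leaving out each library in turn, where EIF2AK2 (-0.038) was -0.074 to 0.014, with 0.0136 without 5 µM replicate 2, NAPSA (0.094) was -0.097 to 0.257 and LINC00319 (0.124) was -0.372 to 0.39, with -0.0785 without 2.5 µM replicate 2. Medians of the interferon and short RNA lists lay on either side of 0. Counts of genes called or differing were within 1.5 times the main count in 144 cases and outside it in 14. With no filter, 174 genes were called at 2.5 µM against vehicle and 91 at 1 µM. With at least 10 counts required in every library, which tests fewer genes, 1180 were called between 5 and 2.5 µM, 35 at 2.5 µM against vehicle and 707 only at 5 µM. In DESeq2, 36 were called at 2.5 µM against vehicle and 0 at 1 µM, where 1184 genes had an unadjusted p under 0.05 (1703 in edgeR). In a fit of all 54 libraries, 6 were called at 1 µM. Leaving out each library in turn gave 173 to 343 genes of opposite sign and 8 to 25 genes called at 1 µM, but 1733 to 1861 called between 5 and 2.5 µM and 1131 to 1282 only at 5 µM. The stricter filter tested fewer genes (13718 against 15742), while the fits without 1 library tested more, from 15979 to 16081. The cause of these changes in the counts was not tested. With a replicate block, 1782 genes were called between the doses, 1159 only at 5 µM, and 367 were opposite in sign. Named genes kept their direction and side of the threshold in 3227 cases, passed where they had not in 23 and no longer passed in 16. List medians moved by more than the spread between replicates in 48 cases and stayed within it in 407. Depth limits genes of few counts, and 82 called genes had a group at the floor. The 3 libraries per group came from 1 cell population at 1 time, and the labels do not state their independence. The results do not extend to other cells or times.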
